A study of Homo sapiens with 6 samples.

Results

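The 35 genes described here encode chaperones, folding enzymes, degradation factors and stress sensors of the endoplasmic reticulum (ER), and they were chosen by name from the 35052 genes of the table. Proteins that enter the secretory pathway fold in the ER. When unfolded protein builds up there, 3 sensors in the ER membrane (IRE1, encoded by ERN1; PERK, encoded by EIF2AK3; and ATF6) start the unfolded protein response (UPR). IRE1 removes a short intron from the XBP1 mRNA in the cytoplasm, ATF6 is cut in the Golgi to free a transcription factor, and PERK slows translation. In mice, eosinophils need XBP1 to form in the bone marrow.

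The cells were EoL-1, a human eosinophilic leukaemia cell line, and per the labels' protocols ATF3 was knocked out with CRISPR/Cas9. There were 3 libraries labelled ATF3/JUN double knockout and 3 labelled JUN knockout, with no agent listed for either group. JUN and ATF3 encode transcription factors of the basic leucine zipper class. Both groups carry the JUN knockout, so the comparison asked what loss of ATF3 added to it, and no unedited library was analysed here. In the deposited file names, each double knockout carries the JUN code of the JUN knockout with the same number plus an ATF3 code of its own. The labels do not say that the libraries were separate cultures, so every p-value refers to the spread among these 6 libraries, which may be technical.

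The libraries held 26146998 to 29567970 estimated reads. ATF3 mRNA was at 13.1, 10.0 and 7.63 CPM (read counts scaled to library size) in the double knockout and 20.2, 13.7 and 8.89 CPM in the JUN knockout. JUN mRNA was at 13.8, 16.6 and 25.7 CPM in the double knockout and 13.2, 27.2 and 24.6 CPM in the JUN knockout. A frameshift need not lower an mRNA, so neither edit can be judged from these levels. Of 10 eosinophil markers, RNASE2 and RNASE3 were expressed, while EPX, PRG3, CLC, IL5RA and GATA1 were at 0 in all 6 libraries and PRG2, SIGLEC8 and CCR3 stayed under 1 CPM. The summed level of these markers was 120 to 186 TPM (abundance corrected for transcript length) in the double knockout and 70.4 to 194 TPM in the JUN knockout, and its part in the results below was not tested.

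As a group the ER genes lay slightly higher in the double knockout, and no single gene passed the test. They took 0.606%, 0.587% and 0.607% of a library's gene-assigned reads in the double knockout, against 0.548%, 0.541% and 0.569% in the JUN knockout. The groups did not overlap, and the exact two-sided permutation test, which ignored pairs, gave p = 0.1, the smallest that 3 against 3 libraries allow. This sum weighs abundant genes most. XBP1 averaged 696 CPM in the double knockout and 575 CPM in the JUN knockout, CANX 434 and 329 CPM, and P4HB 865 and 850 CPM. All 35 genes passed the filter on low counts. The fitted log2 fold change, double knockout minus JUN knockout, was above 0 in 26 genes and below 0 in 9, against 50.7% above 0 among all 12954 genes tested. The median was 0.09 over the 35 genes and 0.00 over all genes. edgeR's quasi-likelihood test called 0 of the 35 at an adjusted p under 0.05, as it called 0% of all genes. DESeq2 called 0 of the 35 (0.548% of all genes), and so did limma-voom (0.0309% of all genes). At an unadjusted p under 0.05 in edgeR, 3 of the 35 were higher (2.93% of all genes) and 0 were lower (2.89%). With the replicate number as a block, 5 were higher (5.3% of all genes) and 1 was lower (4.49%) at that limit, and 0 passed after adjustment (0% of all genes). Within same-numbered pairs, 15 of the 35 were higher in the double knockout in all 3 pairs (18% of all genes) and 3 were lower in all 3 (15.2%).

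**Figure D1:**
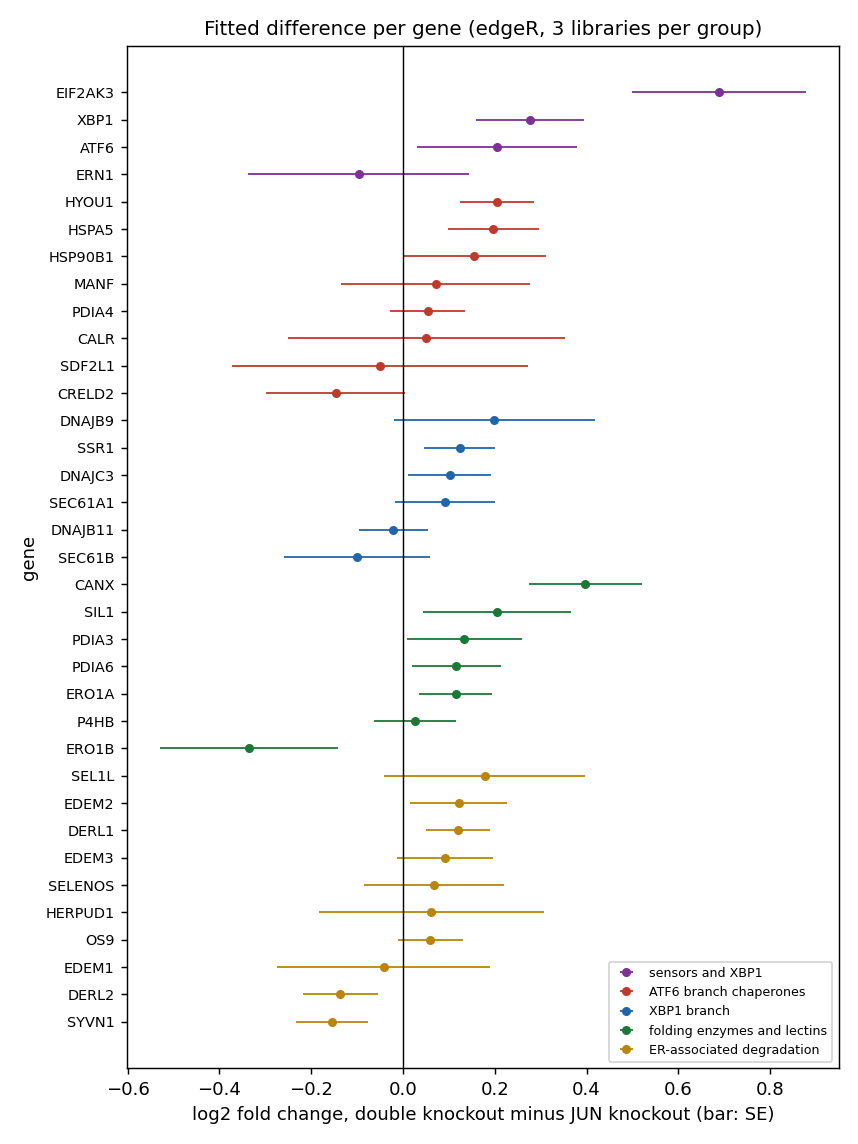
Log2 fold change of each of the 35 genes, double knockout minus JUN knockout (x axis), with its standard error, 3 libraries per group, coloured by role. EIF2AK3 at 0.69 and CANX at 0.40 stand farthest to the right and ERO1B at −0.34 farthest to the left.

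EIF2AK3, XBP1 and ATF6 had higher means in the double knockout and ERN1 had a lower one. Over these 4 genes the median log2 fold change was 0.24, against 0.00 for all genes. EIF2AK3 (ENSG00000172071, chr2:88556741-88627576, minus strand, GRCh38) encodes PERK, the kinase that phosphorylates eIF2α. It was at 15.4, 21.0 and 13.3 CPM in the double knockout and 11.4, 9.25 and 10.1 CPM in the JUN knockout. In CPM every double knockout library was above every JUN knockout library. In TPM the groups overlapped, at 4.93, 6.25 and 2.70 in the double knockout and 3.49, 2.16 and 2.99 in the JUN knockout. The main transcript EIF2AK3-201 alone did not overlap in TPM, at 2.94, 4.01 and 2.59 against 2.38, 1.78 and 1.85. The means were 16.5 ± 3.95 CPM in the double knockout and 10.3 ± 1.10 CPM in the JUN knockout (SD, n = 3 each). The log2 fold change was 0.69 (SE 0.19, edgeR adjusted p = 0.789).

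XBP1 (ENSG00000100219, chr22:28794555-28800597, minus strand), the transcription factor made by IRE1 splicing, was among the most abundant of the 35 at a mean of 353 TPM. It was at 786, 703 and 601 CPM in the double knockout and 623, 571 and 531 CPM in the JUN knockout. Within each pair of same-numbered libraries the double knockout was higher, while double knockout library 3 lay below JUN knockout library 1. The log2 fold change was 0.28 (SE 0.12, edgeR adjusted p = 0.863). ATF6, which encodes the sensor cut in the Golgi, was at 82.5, 75.4 and 63.6 CPM in the double knockout and 80.5, 58.0 and 53.6 CPM in the JUN knockout (log2 fold change 0.21, SE 0.17, edgeR adjusted p = 0.95). ERN1, which encodes IRE1, was at 32.8, 28.7 and 24.5 CPM in the double knockout and 42.2, 27.4 and 22.2 CPM in the JUN knockout. JUN knockout library 1 was the highest of all for ERN1, and without it the log2 fold change of −0.10 turned to 0.21. On the length-corrected scale the sensors were scarce: ATF6, ERN1 and EIF2AK3 averaged 9.22, 4.66 and 3.75 TPM.

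The share of XBP1 reads on spliced transcripts was examined separately, because IRE1 makes the spliced form and the share is scaled by the level of the gene. The intron that IRE1 removes is 26 bases long. It is shown here because the whole readout rests on its loss. The first line is the unspliced mRNA at chr22:28796088-28796185 (GRCh38, minus strand, GENCODE transcript sequence), with the intron in capitals as it is annotated for XBP1-207, and the second line is the spliced mRNA across the same span.
XBP1 unspliced: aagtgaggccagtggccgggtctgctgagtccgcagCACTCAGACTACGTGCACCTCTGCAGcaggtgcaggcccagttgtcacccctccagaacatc
XBP1 spliced: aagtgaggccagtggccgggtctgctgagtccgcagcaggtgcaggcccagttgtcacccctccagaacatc
The loss of 26 bases shifts the reading frame, so the coding sequence runs to 376 codons in the spliced form and 261 codons in the main unspliced transcript, XBP1-201. The annotation holds 2 spliced transcripts, XBP1-202 and XBP1-207, and XBP1-202 places the intron 2 bases further 3′. Both placements give the same joined sequence.

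Spliced XBP1 took a larger share of the gene's reads in every double knockout library than in any JUN knockout library. The share was 2.06% (95% Wilson interval 1.87% to 2.27%), 1.70% (1.53% to 1.90%) and 1.75% (1.56% to 1.96%) in the double knockout. In the JUN knockout it was 1.38% (1.21% to 1.57%), 0.783% (0.656% to 0.931%) and 0.890% (0.748% to 1.06%). The intervals cover counting error only, not the assignment of reads between transcripts. The means were 1.84 ± 0.192% in the double knockout and 1.02 ± 0.319% in the JUN knockout (SD, n = 3 each), and the exact permutation test gave p = 0.1, the smallest possible. The difference was 0.675, 0.921 and 0.859 percentage points in pairs 1, 2 and 3. At the read level, 402, 316 and 297 estimated reads were spliced in the double knockout, against 234, 124 and 123 in the JUN knockout. After scaling, spliced XBP1 was at 12.9 ± 2.94 CPM in the double knockout and 5.93 ± 2.32 CPM in the JUN knockout, a ratio of 2.17. The main unspliced transcript was at 633 ± 82.5 CPM in the double knockout and 518 ± 44.5 CPM in the JUN knockout, a ratio of 1.22.

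**Figure D2:**
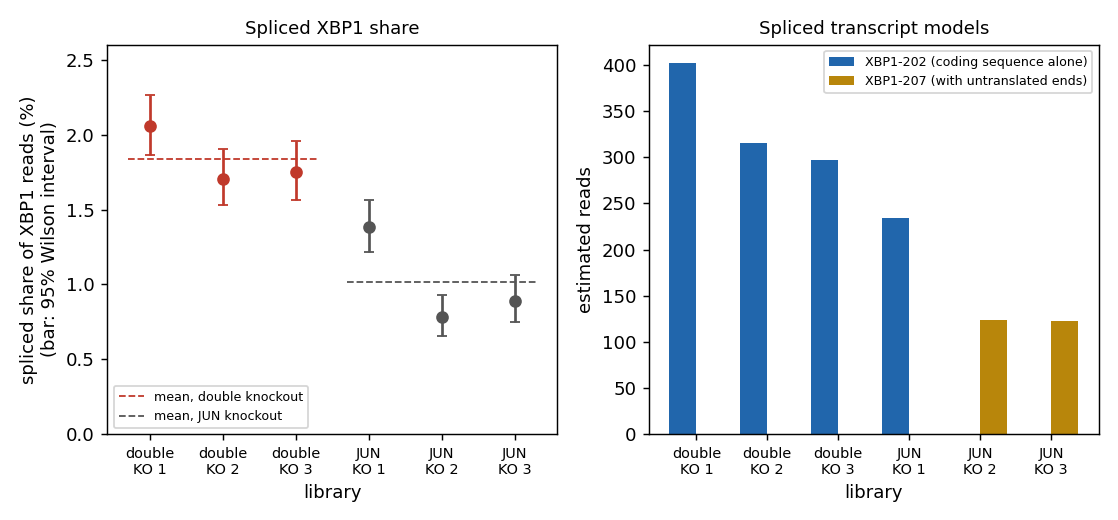
Left, spliced share of XBP1 reads in percent by library, with 95% Wilson intervals and dashed group means. Right, estimated reads on the 2 spliced transcripts by library, showing XBP1-207 in use only in JUN knockout libraries 2 and 3, which also have the lowest shares.

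The spliced transcript to which reads were assigned differed between libraries. In the 3 double knockout libraries and JUN knockout library 1 all spliced reads lay on XBP1-202, which is 1131 bases long and holds the coding sequence with almost no untranslated sequence. In JUN knockout libraries 2 and 3 they lay on XBP1-207, which is 1794 bases long, and XBP1-202 was assigned 0 reads. The part of this switch in the difference was not tested. Among the 4 libraries that used XBP1-202, JUN knockout library 1 still had the lowest share, with an interval that overlapped those of double knockout libraries 2 and 3. As a share of XBP1 TPM, which corrects for length, spliced XBP1 was 3.64%, 3.01% and 3.11% in the double knockout and 2.44%, 0.794% and 0.909% in the JUN knockout, a difference of 1.87 percentage points. The number of reads that cross the splice site itself is not in the files used here.

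The 8 chaperones of the ATF6 branch were nearly level between the genotypes, with a median log2 fold change of 0.06. HSPA5 (chr9:125234853-125241330, minus strand) encodes BiP, the main Hsp70 chaperone of the ER, which also holds the sensors inactive. It was at 480.0, 418 and 489 CPM in the double knockout and 374, 394 and 442 CPM in the JUN knockout. The double knockout was higher in each pair, but the groups overlapped in CPM, and the log2 fold change of 0.20 (SE 0.10) had an edgeR adjusted p of 0.893. In TPM the groups did not overlap, at 113, 103 and 111 in the double knockout and 94.5, 90.3 and 99.1 in the JUN knockout. HYOU1, an Hsp110-type chaperone that exchanges nucleotide on BiP, was at 137, 119 and 125 CPM in the double knockout and 109, 108 and 113 CPM in the JUN knockout. These groups did not overlap in CPM but did in TPM (log2 fold change 0.20, SE 0.08, edgeR adjusted p = 0.854). HSP90B1, the ER form of Hsp90, was at 349.6, 337 and 396 CPM in the double knockout and 259, 320.3 and 393 CPM in the JUN knockout (log2 fold change 0.16, SE 0.16, 0.02 to 0.32 with libraries left out).

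CALR, SDF2L1 and MANF ranged widely over the 6 libraries, and the groups overlapped. CALR, the calcium-binding lectin calreticulin, was at 479, 439 and 726 CPM in the double knockout and 334, 534 and 719 CPM in the JUN knockout. Both libraries numbered 3 were the highest, and the gene ranged 2.17-fold over the 6 libraries, with a log2 fold change of 0.05 (SE 0.30). SDF2L1, a partner of ER-resident J proteins, ranged 2.20-fold over the libraries, at 7.88, 8.49 and 13.2 CPM in the double knockout and 6.21, 10.8 and 13.7 CPM in the JUN knockout. MANF, an ER-resident and secreted neurotrophic factor that binds BiP, ranged 1.69-fold with the same libraries at the top. CRELD2, an ER protein with EGF-like domains, was at 10.9, 10.8 and 12.5 CPM in the double knockout and 10.7, 14.6 and 12.7 CPM in the JUN knockout. PDIA4, a disulfide isomerase, stayed between 58.9 and 67.9 CPM in all 6 libraries. JUN knockout library 1 was the lowest of the 6 for 16 of the 35 genes and for 7 of these 8, all but HYOU1, against 24.5% of all genes tested. This count was chosen after the values were seen. Without it the median of the branch turned to −0.05, and without JUN knockout library 3 it was 0.24.

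Promoter sequence was also searched, without use of the expression values. The ATF6 branch was drawn up from known roles, so matches to an ATF6 element there describe the list and are not independent support for it. The ER stress response element (ERSE), which ATF6 binds together with NF-Y, was searched as CCAAT and CCACG 9 bases apart, and the shorter ERSE-II as ATTGG and CCACG 1 base apart, both on either strand. The windows ran from 250 bases before to 50 after the RefSeq start of each gene (GRCh38.p14), and 33 of the 35 genes had one, all but DERL1 and PDIA3. An exact ERSE was present in 7 of the 33 and in 0.0806% of all 27305 windows. An exact ERSE-II was present in 3 of the 33 and in 0.0549% of all windows. Of the 8 ATF6 branch genes 6 held one or the other, as did 1 of 4 sensors and XBP1, 2 of 6 folding genes with a window, 1 of 9 degradation genes with a window and 0 of 6 XBP1 branch genes. The UPR element core TGACGTGG was found in 1 of 33 (0.795% of all windows), in HYOU1, where it overlaps an ERSE-II. The site TGACGTCA, to which ATF and JUN dimers bind, was found in 0 of 33 (1.98% of all windows). The pattern TGANTCA was found in 2 of 33 (7.76%). It allows any base at N, so it is looser than the JUN dimer site, which has C or G there. The elements are printed 5′ to 3′ on the strand of the gene, with 5 bases on each side and their fixed letters in capitals, because 6 of the 8 ATF6 branch genes hold one.
HSPA5, chr9:125241386-125241414, 66 bases before the start: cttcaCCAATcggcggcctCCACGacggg
HSP90B1, chr12:103930211-103930239, 194 bases before the start: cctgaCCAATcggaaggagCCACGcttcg
HSP90B1, chr12:103930316-103930344, 89 bases before the start: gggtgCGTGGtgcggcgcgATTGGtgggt
CALR, chr19:12938379-12938407, 225 bases before the start: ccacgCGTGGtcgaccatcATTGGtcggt
CRELD2, chr22:49918549-49918577, 80 bases before the start: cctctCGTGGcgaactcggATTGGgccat
HYOU1, chr11:119057375-119057395, 185 bases before the start: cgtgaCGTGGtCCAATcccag
HYOU1, chr11:119057269-119057289, 79 bases before the start: tgggaCGTGGtCCAATgagta
SDF2L1, chr22:21642109-21642129, 188 bases before the start: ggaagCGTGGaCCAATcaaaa
XBP1, chr22:28800598-28800626, 52 bases before the start: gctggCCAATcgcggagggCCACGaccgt
CANX, chr5:179698773-179698801, 151 bases before the start: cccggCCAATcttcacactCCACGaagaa
ERO1B, chr1:236282178-236282206, 243 bases before the start: gcccgCGTGGtcccgcctcATTGGccgcc
HERPUD1, chr16:56932020-56932040, 117 bases before the start: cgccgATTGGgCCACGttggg
Genes with the element had fold changes of both signs, none of them called. HYOU1, XBP1 and CANX had log2 fold changes of 0.20, 0.28 and 0.40, while CRELD2 and ERO1B had −0.15 and −0.34.

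Genes of the XBP1 branch, which supply J proteins and the translocation channel, had 0.10 as their median log2 fold change, and the groups overlapped for all 6. SEC61A1, the channel subunit, was at 286, 269 and 324 CPM in the double knockout and 249, 274 and 303 CPM in the JUN knockout. SEC61B, a small subunit of the same channel, had a log2 fold change of −0.10 (SE 0.16), at 21.4, 18.3 and 24.0 CPM in the double knockout and 18.9, 26.5 and 22.9 CPM in the JUN knockout. SSR1, a subunit of the translocon-associated complex, was at 215, 210.3 and 200.1 CPM in the double knockout and 202, 183 and 189 CPM in the JUN knockout (log2 fold change 0.12, SE 0.08, edgeR adjusted p = 0.919). DNAJB9, a J protein that depends on spliced XBP1, had the largest estimate of the branch at 0.20 (SE 0.22) and was highest in double knockout library 1 at 17.9 CPM. DNAJC3 was at 44.8 to 54.8 CPM and DNAJB11 at 58.4 to 63.4 CPM over the 6 libraries, with log2 fold changes of 0.10 and −0.02.

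Among folding enzymes and lectins, CANX was the only one of 7 whose groups did not overlap in CPM, and the median log2 fold change was 0.12. In TPM, CANX, PDIA3, PDIA6 and SIL1 were higher without overlap, P4HB and ERO1B were lower without overlap, and ERO1A overlapped. CANX (chr5:179678628-179730925, plus strand) encodes calnexin, the membrane lectin that holds glycoproteins while they fold. It was at 444, 446 and 411 CPM in the double knockout and 370.2, 272 and 346 CPM in the JUN knockout. The groups did not overlap, with means of 434 ± 19.7 CPM in the double knockout and 329 ± 51.0 CPM in the JUN knockout (SD, n = 3 each). The log2 fold change was 0.40 (SE 0.12, edgeR adjusted p = 0.789). Its transcript CANX-209 was at 153, 164 and 119.9 CPM in the double knockout and 121, 59.8 and 59.6 CPM in the JUN knockout.

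PDIA3, the isomerase that works with calnexin and calreticulin, was at 283, 261 and 303 CPM in the double knockout and 217, 261 and 294 CPM in the JUN knockout. Between 80.0% and 85.3% of its reads were assigned to PDIA3-202, which is annotated as a target of nonsense-mediated decay. PDIA6, another isomerase, was at 245, 239 and 246 CPM in the double knockout and 199, 225 and 249 CPM in the JUN knockout. The 2 oxidases that recharge these isomerases differed in sign. ERO1A, the widely expressed one, was at 109, 103 and 99.7 CPM in the double knockout and 102, 93.8 and 92.5 CPM in the JUN knockout (log2 fold change 0.12, SE 0.08). ERO1B was at 6.75, 7.09 and 5.12 CPM in the double knockout and 9.08, 8.24 and 6.62 CPM in the JUN knockout, lower in each pair (log2 fold change −0.34, SE 0.19, edgeR adjusted p = 0.909). The difference between the 2 oxidases was not tested. SIL1, a nucleotide exchange factor of BiP, was at 6.17 to 8.95 CPM over the libraries.

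P4HB (chr17:81843159-81860694, minus strand), the founding protein disulfide isomerase, was the most abundant of the 35 at a mean of 589 TPM. The gene as a whole was level in CPM, at 850.2, 831 and 915 CPM in the double knockout and 765, 904 and 881 CPM in the JUN knockout (log2 fold change 0.03, SE 0.09). In TPM it was lower without overlap, at 537, 538 and 571 in the double knockout and 625, 661 and 604 in the JUN knockout. Its transcripts were not level, an observation made after their values were seen. The main coding transcript P4HB-201 was at 535, 540.2 and 527 CPM in the double knockout and 393, 343 and 393 CPM in the JUN knockout, with no overlap. It made up 62.9%, 65.0% and 57.6% of the gene's reads in the double knockout, against 51.4%, 38.002% and 44.6% in the JUN knockout. P4HB-202, also coding, was at 103, 81.6 and 149 CPM in the double knockout and 134, 229 and 195 CPM in the JUN knockout. With an offset for transcript length, the log2 fold change of the gene was −0.20, against 0.03 without it.

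Transcripts annotated as retaining an intron took 9.47%, 11.2% and 12.1% of P4HB reads in the double knockout and 16.4%, 14.6% and 15.1% in the JUN knockout. Over the 15 genes of the 35 with at least 50 such reads, the groups did not overlap and the double knockout was lower in 5, namely P4HB, OS9, HERPUD1, CALR and EDEM1. Over all 3163 genes with at least 50 such reads that happened in 26.5%, and the double knockout was higher in 2.09%, so the members' count is near that of genes at large. Of 87 transcripts of these genes with a mean of at least 100 reads, 12 were higher without overlap (6.54% of all such transcripts) and 7 were lower (8.2%). Of the 7 that were lower, 5 belonged to P4HB.

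The 10 genes of ER-associated degradation, which moves misfolded protein back to the cytosol, had 0.06 as their median log2 fold change, or −0.01 without double knockout library 1. In CPM, SYVN1 and DERL2 were lower without overlap, and DERL1 was higher without overlap. SYVN1, the ubiquitin ligase HRD1 at the centre of the channel, was at 40.4, 38.2 and 42.2 CPM in the double knockout and 44.0, 44.7 and 45.9 CPM in the JUN knockout (log2 fold change −0.15, SE 0.08, edgeR adjusted p = 0.893). DERL2, a channel protein of the derlin family, was at 28.4, 27.9 and 29.9 CPM in the double knockout and 31.2, 31.2 and 32.4 CPM in the JUN knockout (log2 fold change −0.14, SE 0.08). Its paralogue DERL1 was at 89.1, 87.9 and 91.6 CPM in the double knockout and 81.9, 84.7 and 80.6 CPM in the JUN knockout (log2 fold change 0.12, SE 0.07). Together with EIF2AK3, CANX and HYOU1, 4 of the 35 genes were higher without overlap in CPM (6.31% of all genes) and 2 were lower (5.94%). In TPM the groups of EIF2AK3, HYOU1, DERL1, SYVN1 and DERL2 overlapped, and those of CANX did not. Among genes that overlapped in CPM, HSPA5, PDIA3, PDIA6 and SIL1 were higher without overlap in TPM, and P4HB and ERO1B were lower. The share of all genes without overlap in TPM was not counted.

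SEL1L, EDEM1 and HERPUD1 ranged 1.65-fold, 1.76-fold and 1.74-fold over the libraries, each highest in JUN knockout library 1. SEL1L, the adaptor of HRD1, was at 125, 110.0 and 89.5 CPM in the double knockout and 129, 78.1 and 80.3 CPM in the JUN knockout. EDEM1, which trims mannose from misfolded glycoproteins, was at 391.5, 405 and 279 CPM in the double knockout and 489, 341 and 278 CPM in the JUN knockout. HERPUD1, a partner of HRD1, was lowest in both libraries numbered 3, at 64.5 CPM in the double knockout and 62.0 CPM in the JUN knockout. The lectin OS9 stayed between 126 and 138 CPM. EDEM2, EDEM3 and SELENOS had log2 fold changes of 0.12, 0.09 and 0.07, each smaller than 1.5 times its SE.

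**Figure D3:**
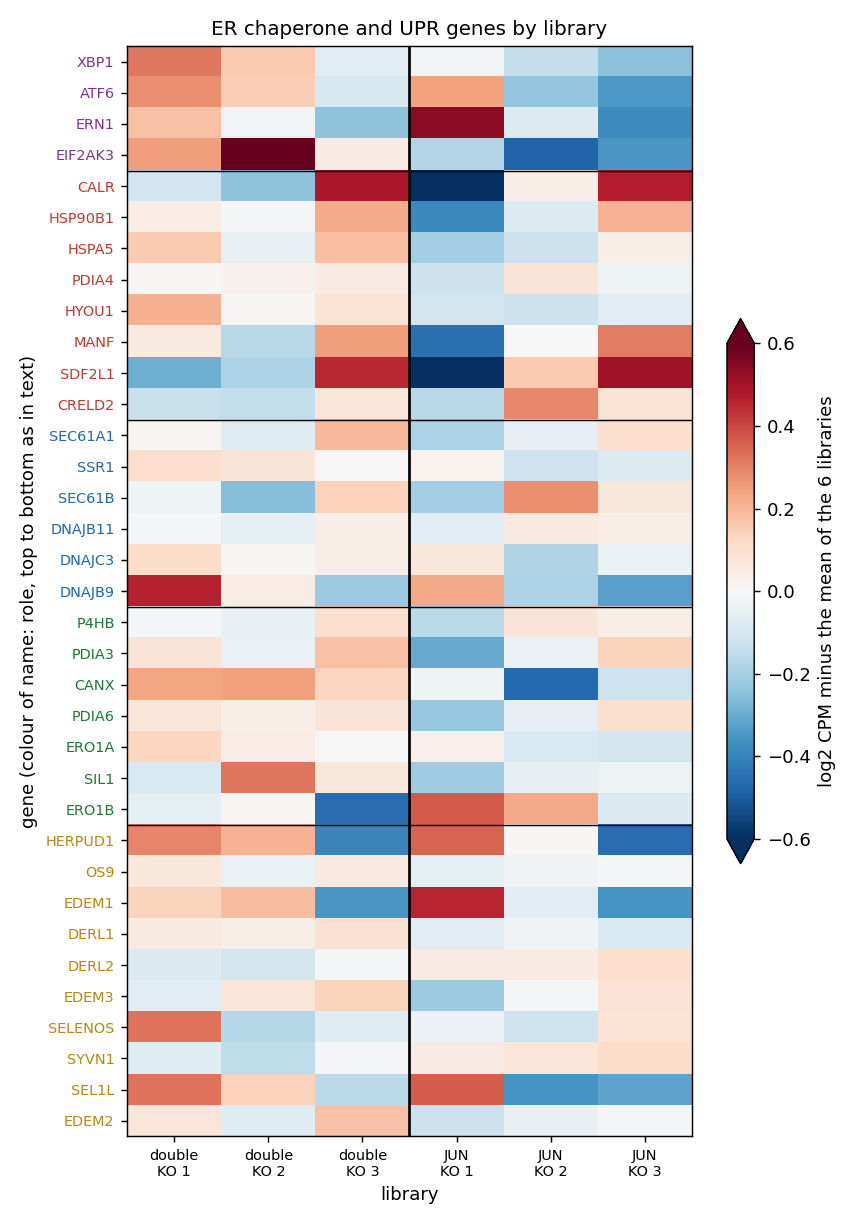
Log2 CPM of each gene minus its mean over the 6 libraries (colour), with genes in rows by role (sensors and XBP1, ATF6 branch, XBP1 branch, folding, degradation, from top to bottom) and double knockout libraries left of the line. CALR, SDF2L1 and MANF are lowest in JUN knockout library 1 and high in both libraries numbered 3, while ERN1, EDEM1, SEL1L and HERPUD1 are highest in JUN knockout library 1.

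The role groups differed in which libraries were high, as medians over genes of log2 CPM minus the gene's mean of 6 libraries. For the sensors and XBP1 this was 0.26, 0.15 and −0.08 in the double knockout and 0.11, −0.19 and −0.34 in the JUN knockout. For the ATF6 branch it was 0.03, −0.09 and 0.20 in the double knockout and −0.30, 0.02 and 0.15 in the JUN knockout. Within each genotype the sensors and XBP1 were lowest in library 3, where the ATF6 branch was highest. The XBP1 branch and degradation groups stayed within 0.09 of their mean in every library. The median effective transcript length was 4356 bases for the sensors and XBP1, 1539 bases for the ATF6 branch and 1880 bases for all genes tested, and its part in this pattern was not tested. The mitochondrial share of reads was 4.50%, 4.68% and 5.69% in the double knockout and 4.36%, 6.03% and 6.16% in the JUN knockout, and its part was not tested either. Gene counts gave a split that crossed the genotypes. The chi-square per gene was 11.7 to 20.9 among double knockout libraries 1 and 2 and JUN knockout library 1. Among the other libraries it was 12.8 to 19.0, and between these sets 28.4 to 67.3. XBP1, ATF6 and ERN1 were higher in each library of the first set than in any of the second. CALR and SDF2L1 were lower, and EIF2AK3 overlapped. The genotypes were unevenly spread over the sets, and the part of this split was not tested.

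**Figure D4:**
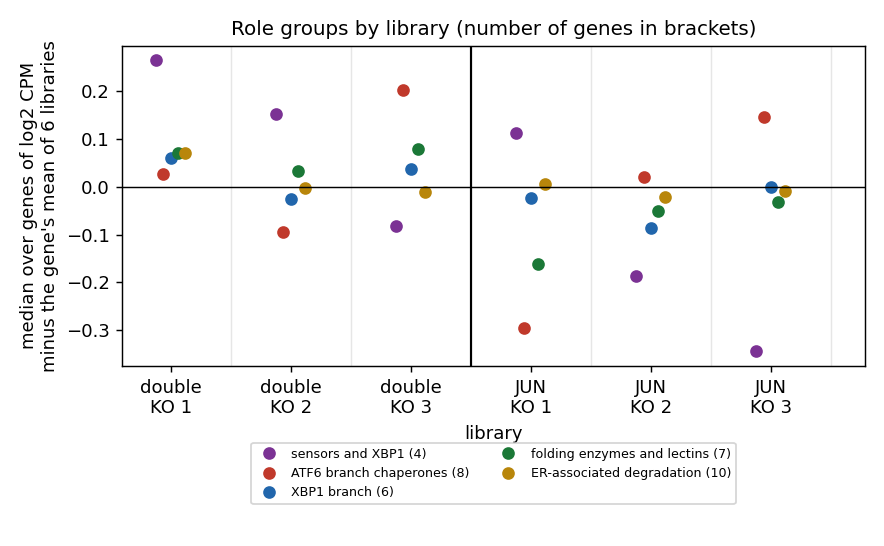
Median over the genes of each role of log2 CPM minus the gene's mean of 6 libraries (y axis), by library, double knockout left of the line. The sensors and XBP1 lie between −0.34 and 0.26 and the ATF6 branch between −0.30 and 0.20, and the XBP1 branch and degradation groups stay nearer to 0.

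Among genes of the pathway outside the 35, none was called. Of 12 genes of the PERK and ATF4 arm, 8 were above 0 (50.7% of all genes) and edgeR called 0 (0% of all genes). At an unadjusted p under 0.05, 1 of the 12 was higher (2.93% of all genes) and 0 were lower (2.89%). That gene was PPP1R15B, a phosphatase subunit that reverses eIF2α phosphorylation, at 159.7, 154 and 131 CPM in the double knockout and 129.9, 123 and 126 CPM in the JUN knockout (log2 fold change 0.23, SE 0.09, edgeR adjusted p = 0.854). NUPR1, a stress-induced chromatin protein, was at 0.724, 1.25 and 0.707 CPM in the double knockout and 0.661, 0.755 and 0.654 CPM in the JUN knockout. EIF2S1, which encodes eIF2α itself, was at 124, 119 and 138 CPM in the double knockout and 115, 133 and 155 CPM in the JUN knockout. ATF4, the factor translated when eIF2α is phosphorylated, was at 727, 643 and 489 CPM in the double knockout and 718, 664 and 558 CPM in the JUN knockout. DDIT3, which encodes the stress factor CHOP, was at 26.7, 18.1 and 8.87 CPM in the double knockout and 25.3, 14.1 and 10.3 CPM in the JUN knockout. Both were lowest in the libraries numbered 3, and the median range of the 12 genes over the 6 libraries was 2.36-fold, against 1.39-fold for the 35 ER genes and 1.41-fold for all genes. DDIT3 was named after its values were seen.

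Of 70 other ER secretory genes 67 were tested, with 46 above 0 (50.7% of all genes) and a median log2 fold change of 0.05. edgeR called 0 of the 67 (0% of all genes) and DESeq2 called 0 (0.548% of all genes). At an unadjusted p under 0.05 in edgeR, 4 were higher (2.93% of all genes) and 2 were lower (2.89%). LMAN1, the cargo receptor ERGIC-53, was at 142, 139.8 and 123 CPM in the double knockout and 113, 104 and 117 CPM in the JUN knockout (log2 fold change 0.27, SE 0.09, edgeR adjusted p = 0.789). SPCS3, a signal peptidase subunit, was at 330.3, 311 and 302 CPM in the double knockout and 260.5, 268 and 288 CPM in the JUN knockout (log2 fold change 0.21, SE 0.08). Another signal peptidase subunit, SEC11C, was lower without overlap at 17.9, 16.1 and 20.2 CPM in the double knockout and 22.4, 20.9 and 23.8 CPM in the JUN knockout (log2 fold change −0.31, SE 0.12). RNF5, an ER ubiquitin ligase, was at 39.8, 37.4 and 40.1 CPM in the double knockout and 45.7, 42.7 and 46.0 CPM in the JUN knockout (log2 fold change −0.20, SE 0.08). It lies in the major histocompatibility complex, where alternative copies can take reads. Of 4 plasma cell markers 1 was tested and named after its values were seen. MZB1, an ER cochaperone of B and plasma cells, was at 12.2, 6.44 and 4.45 CPM in the double knockout and 5.62, 4.28 and 3.81 CPM in the JUN knockout, with an edgeR adjusted p of 0.893 and its part in the results not tested, while JCHAIN and TNFRSF17 were at 0 in all 6 libraries.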

How the data were processed

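RNA was sequenced from 6 EoL-1 libraries with a stranded mRNA kit. Salmon 1.6.0, FastQC 0.11.9 and the build hg38 are named in the submitters' processing notes. The authors deposited, per the file headers, an estimated count and a TPM value for each transcript. Transcripts were joined to GENCODE 29 (GRCh38) by identifier. Of them 94.1% matched, and the remainder, with 3.58% to 3.71% of reads, was left out, so a gene with an alternative copy may have lost reads. Gene values are sums over transcripts, with counts rounded to whole numbers.

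Genotypes were compared by the quasi-likelihood test of edgeR 4.0.16 (R 4.3.3) after filterByExpr and TMM scaling, with genotype as the single term, two-sided. P-values were adjusted by Benjamini-Hochberg over all 12954 genes and read at 0.05. The SE came from the fold change and its F statistic, and CPM carries the TMM scaling. Alternatives were DESeq2 1.42.0, limma-voom (limma 3.58.1), RLE size factors, other filters, a replicate block, a transcript length offset, coding transcripts alone and libraries left out. Fits were tested on simulated data. The closest libraries still differed by more than sampling noise (chi-square per gene 11.7).

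Same-numbered libraries were treated as paired in the replicate block, the sign flips and the pair differences, because their deposited file names share a JUN code. The main fit and the exact permutation tests did not use the pairing. The correlation of deviations from group means was 0.329, 0.0958 and 0.412 in pairs 1, 2 and 3. Double knockout library 2 correlated slightly more with JUN knockout library 1 (0.112) than with its own number, so pair 2 rests on the file names and not on these correlations.

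The genes and lists were chosen with earlier results of these data known, and each gene was given 1 role although many answer to several branches. Every library's value is given for the 10 genes with the highest TPM, the 6 with the lowest p in each direction, the sensors and XBP1, ATF3 and JUN, and, in the PERK and ATF4 arm and the other ER secretory genes, for the 2 lowest p in each direction. Cell type markers were not part of that rule. ERO1A, SDF2L1, SEL1L, EDEM1, DDIT3 and MZB1 fall outside that rule and were added after their values were seen. Spliced XBP1 transcripts were those with an annotated intron of 26 bases. Of 4 T and B cell markers and 3 erythroid markers, 0 passed the filter.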

Additional observations from a re-analysis of the deposited data

How the results depend on the processing

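The count of genes called, 0, was 71 with DESeq2, 4 with limma-voom and 1 with no filter, and 0 to 1 when libraries were left out. Of the 35 genes, 0 were called under any of the alternatives run. The fit with the replicate block called 0 genes and changed no call, left 26 of the 35 above 0, and gave a mean paired difference in spliced XBP1 share of 0.818 percentage points (exact sign flips p = 0.25, the smallest that 3 pairs allow). Leaving out libraries moved the number above 0 between 24 and 28, the XBP1 share difference between 0.701 and 1.00, and the median log2 fold change between 0.0624 and 0.125 for the 35 genes. The medians by role ran from 0.149 to 0.372 (sensors and XBP1), −0.0504 to 0.244 (ATF6 branch), 0.0335 to 0.121 (XBP1 branch), 0.0328 to 0.199 (folding) and −0.0131 to 0.0865 (degradation). With a transcript length offset ERN1 turned to 0.0384 and P4HB to −0.201, and the cause was not tested. With libraries left out, the ranges that cross 0 were −0.280 to 0.206 for ERN1, −0.205 to 0.337 for CALR, −0.318 to 0.217 for SDF2L1, −0.105 to 0.263 for MANF, −0.00495 to 0.378 for DNAJB9, −0.0587 to 0.0137 for DNAJB11, −0.223 to 0.111 for SEC61B, −0.0441 to 0.0902 for P4HB, −0.210 to 0.214 for EDEM1, −0.101 to 0.170 for SELENOS and −0.121 to 0.272 for HERPUD1. Fewer libraries entered these fits. Of the 35 genes, 11 had a range that crosses 0, and 19 kept their sign but moved by over 1.5 times, among them EIF2AK3 (0.401 to 0.823), ATF6 (0.0936 to 0.404), CANX (0.246 to 0.490) and HSP90B1 (0.0186 to 0.318). Spliced XBP1 rests on 123 to 402 estimated reads per library.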
